A study of Mus musculus with 4 samples.

Results

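The genes described here are the 3 fibrinogen chains, Fga, Fgb and Fgg, among 18193 genes measured on Affymetrix mouse arrays hybridised with total RNA from glomeruli. They were taken by gene symbol, and the set was chosen by its measured differences between these arrays, the difference between knockout and wild type under aldosterone above all. Their own values are therefore given as a description with no test. Each chain had 1 probe set that carried its symbol alone (1424279_at for Fga, 1428079_at for Fgb and 1416025_at for Fgg), so that probe set is also the gene's brightest. No probe set annotated with several genes held a chain. The study crossed genotype with treatment in male mice, all with a kidney removed, and measured 1 array for each of 4 groups. Wild-type mice (WT) and systemic GC-A knockout mice (KO) received either of the treatments. GC-A, or guanylyl cyclase A, is the product of Npr1 and the receptor through which the natriuretic peptides of the heart act. Under the control treatment the mice were kept on a normal diet while 2% ethanol was delivered under the skin. Under ALDO they received aldosterone, the mineralocorticoid hormone of the adrenal cortex, by the same route, together with a 6% salt diet, for 3 weeks. The knockout is whole-body, so cells outside the glomerulus and outside the kidney also lack the receptor. The labels do not say whether an array held RNA of 1 mouse or of a pool. With 1 array per group no difference below has a replicate check, no p-value or standard error was computed, and precision is limited by the small number of arrays. Where 4 intensities are given without naming the arrays, the control arrays come first and the ALDO arrays second, with WT before KO in each.

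Fibrinogen is the soluble plasma protein that thrombin turns into fibrin, the meshwork of a clot. It is built in the endoplasmic reticulum from paired copies of the Aα, Bβ and γ chains, encoded by Fga, Fgb and Fgg, which are joined by disulfide bonds. Hepatocytes are the main source, and the chains are classical acute phase genes there: interleukin-6 acts through gp130 and STAT3 to raise their transcription, together with C/EBP factors and glucocorticoids. Epithelial cells outside the liver, including those of the injured kidney tubule, also transcribe the chains, and fibrinogen has been proposed as a marker of kidney injury. In the glomerulus, fibrin deposits are a feature of crescentic and thrombotic disease.

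Arrays were scaled to the same trimmed mean of 500.003 before deposit, with medians between 89.5 and 103. The 9097 genes with the highest mean over the arrays, the brighter 50%, are those counted below, and 9096 genes made up the dimmer 50%. Fga and Fgg passed this filter and Fgb did not. The mean covers all 4 arrays, so a gene low in 1 genotype can pass through the other. Lcn2, an injury marker of the tubule, did so, with 76.5 and 218 in WT and 1497 and 1950 in KO, where the limit was near 247. Counts and medians of brighter list members below hold such genes. Of 15 podocyte markers, 12 had a probe set and all 12 were among the brighter genes (Nphs1 between 1675 and 1899 on the arrays). Kidney RNA not enriched for glomeruli could pass this too, so it does not check the labelled tissue. All 14 proximal tubule markers with a probe set and all 13 distal nephron and collecting duct markers were among the brighter genes too, so the RNA was not of glomerular cells alone. The proximal tubule markers summed to 324454, 304151, 308370 and 282130 in intensity, and the podocyte markers to 35522, 35877, 38784 and 42829. These sums come from different probe sets and give no share of cells. In such a mixed tissue, more cells of a kind and more RNA per cell cannot be told apart. The probe set of Npr1, the gene knocked out, was dim, at 92.6, 108, 60.5 and 23.4. Where it lies relative to the deleted part is unknown, so the genotype labels could not be checked on it.

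The chains lie side by side on mouse chromosome 3 (RefSeq gene table, GRCm38.p6). Fgg spans chr3:83007724-83015056 and Fga chr3:83026153-83033627, both read from the forward strand, and Fgb spans chr3:83042246-83049863 on the reverse strand. The gaps are 11096 bases between Fgg and Fga and 8618 bases between Fga and Fgb, and the whole cluster covers 42140 bases. The 250 bases before each start site are shown as a description of the locus. They run 5′ to 3′ in the direction of the gene, and capitals mark matches to the motifs named after them.
Fga, chr3:83025903-83026152, forward strand: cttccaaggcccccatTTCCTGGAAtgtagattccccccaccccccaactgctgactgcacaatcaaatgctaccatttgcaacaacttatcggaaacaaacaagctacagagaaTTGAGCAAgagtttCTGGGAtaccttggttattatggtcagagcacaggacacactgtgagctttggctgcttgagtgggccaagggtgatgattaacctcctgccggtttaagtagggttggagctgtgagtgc
Fgb, chr3:83049864-83050113, reverse strand: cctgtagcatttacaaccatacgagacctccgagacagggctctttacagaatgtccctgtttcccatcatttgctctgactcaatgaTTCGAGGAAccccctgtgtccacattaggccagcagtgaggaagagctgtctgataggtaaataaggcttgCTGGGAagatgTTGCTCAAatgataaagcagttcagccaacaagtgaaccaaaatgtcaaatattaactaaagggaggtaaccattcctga
Fgg, chr3:83007474-83007723, forward strand: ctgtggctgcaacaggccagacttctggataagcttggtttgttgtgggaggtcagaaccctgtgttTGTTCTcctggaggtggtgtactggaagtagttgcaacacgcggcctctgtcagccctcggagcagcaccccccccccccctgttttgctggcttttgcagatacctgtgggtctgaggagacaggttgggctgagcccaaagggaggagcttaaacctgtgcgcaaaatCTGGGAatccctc

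Motifs were searched on both strands of RefSeq windows from 250 bases before to 50 bases after the start site, 32851 windows of 300 bases in all, and no match overlapped another motif's match. The interleukin-6 response core CTGGGA, described in fibrinogen promoters, was the one motif found in all 3 chains. It began 121 bases before the start site in Fga, 91 in Fgb and 13 in Fgg, with a further match after the start of Fgb, and 31.8% of all windows held it. The STAT motif TTCNNNGAA (8.3% of windows) matched 234 bases before Fga and 162 before Fgb. The C/EBP motif TTGCNNAA (10.8%) matched at 135 and 80 bases before Fga and Fgb. Fgg had no match to the STAT and C/EBP motifs in its window, and held the glucocorticoid receptor core AGAACA (19.0% of windows) 183 bases before its start. TATAAA (13.6%) was found in none of the 3. By these letters the Fga and Fgb windows were alike and the Fgg window was the different one. A match is a run of letters and not a shown binding site, and a link between these letters and the chains' differences was not tested.

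Fgg, the γ chain that carries crosslinking sites and a binding site for leukocyte integrins, reached intensities of 676 in WT control, 721 in WT ALDO, 1995 in KO control and 5082 in KO ALDO. Both KO arrays were above both WT arrays, and the WT arrays lay close together. Fga, the α chain from which thrombin releases the first fibrinopeptide, had 742 in WT control, 812 in WT ALDO, 1176 in KO control and 3064 in KO ALDO. The order was the same as for Fgg, with KO control nearer to WT. Fgb, the β chain, whose synthesis is often held to limit assembly in hepatocytes, had 61.3 in WT control, 140 in WT ALDO, 119 in KO control and 742 in KO ALDO. Its probe set was thus below the median of its array in WT control, somewhat above it in KO control and WT ALDO, and far above it in KO ALDO alone. Levels of different chains are not compared, since each probe set has its own response.

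**Figure D1:**
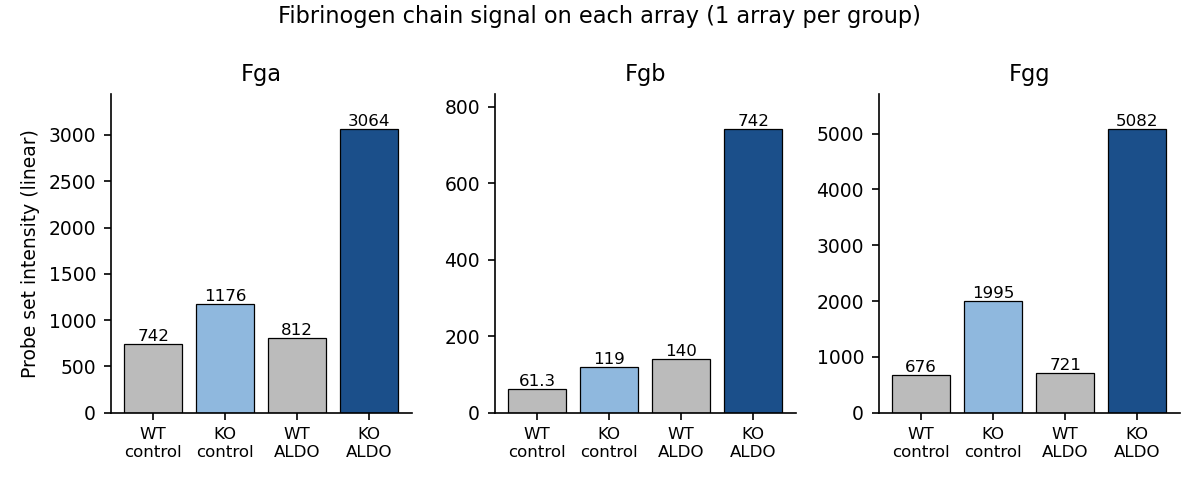
Deposited probe set intensity (linear scale from 0) of Fga, Fgb and Fgg on the 4 arrays, 1 bar for each array, with its value printed above it. KO ALDO is the highest array in all 3 panels, and the WT arrays are the lowest for Fga and Fgg.

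KO ALDO against WT ALDO asked how the genotypes compare under aldosterone and salt. All 3 chains were higher in KO, by 2.79 for Fgg, 2.28 for Fgb and 1.89 for Fga as log2 differences of (intensity + 16). The intensities themselves stood in ratios of 7.05, 5.30 and 3.77. Of the brighter genes 1.26% were higher by 2-fold or more in this comparison, and 8.18% of the dimmer genes. This is the contrast for which the chains were put forward, so nothing is read from their count of 3 of 3. Among the 9097 brighter genes Fgg had the fourth largest difference and Fga the eighth (ranks 4 and 8), and Fgb ranked 28 among all 18193 genes.

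Under the control treatment the chains were also higher in KO, but less and not equally. Fgg had a log2 difference of 1.54 (ratio 2.95, rank 13 of 9097). Fgb had 0.80 and Fga 0.65 (ratios 1.94 and 1.59). So 1 of the 3 chains passed 2-fold, where 0.967% of the brighter and 7.92% of the dimmer genes did. The Fga value lay inside the central 95% of the brighter genes, which ended at 0.70, and the Fgb value inside that of the dimmer genes, which ended at 1.42. Only for Fgg was the difference between the untreated genotypes outside the range of most genes of its brightness. This too is a description, as the chains were chosen by differences between these arrays.

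In WT mice Fga and Fgg were close to the control array under aldosterone and salt, with differences of 0.13 and 0.09 against a central range of -0.49 to 0.55 for the brighter genes. Fgb was higher by 1.01, at the 2-fold line. Of the dimmer genes 6.48% passed 2-fold upward here and of the brighter ones 0.33%, and Fgb was below it under 3 other ways of processing (0.70 with a pseudocount of 64). In KO mice the same treatment went with higher values of all 3 chains. Fgb was higher by 2.49, Fga by 1.37 and Fgg by 1.34. In intensity these are ratios of 6.24, 2.60 and 2.55. All 3 passed 2-fold, as did 0.572% of the brighter and 7.09% of the dimmer genes. Among the brighter genes Fga ranked 9 and Fgg 11, and Fgb ranked 5 among all genes. The KO ALDO array is also in the contrast by which the chains were chosen, so nothing is read from these ranks.

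**Figure D2:**
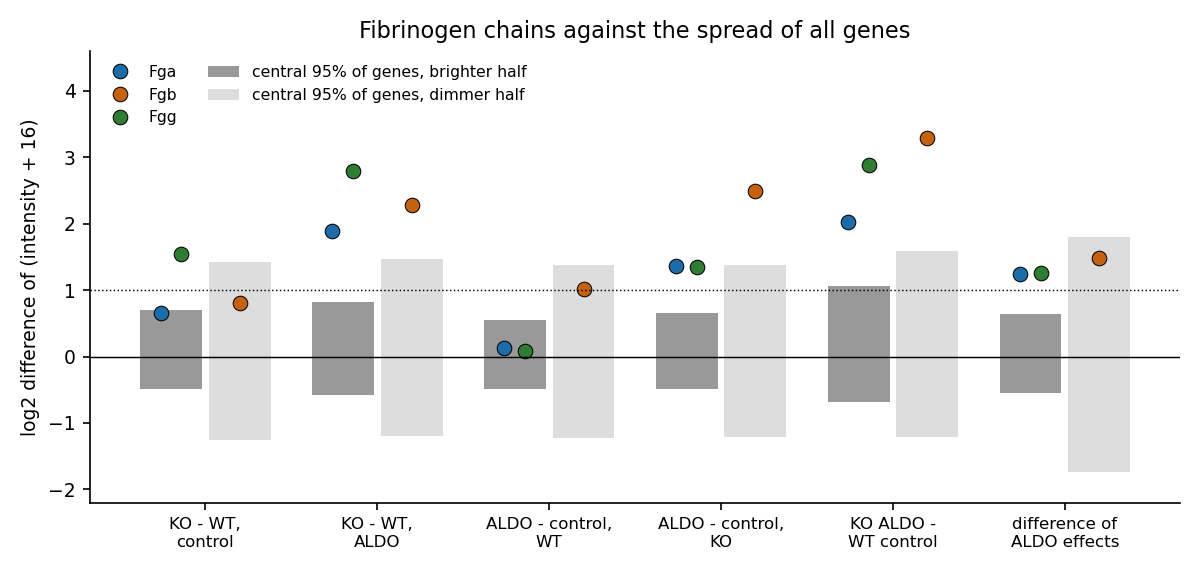
Log2 differences of (intensity + 16) of Fga, Fgb and Fgg (dots) in 6 comparisons, beside bars for the central 95% of the brighter and the dimmer 50% of genes, with a dotted line at 2-fold. Fga and Fgg sit at 0.13 and 0.09 for ALDO in WT and at 1.37 and 1.34 for ALDO in KO, above the bar of the brighter genes. The chains were chosen by differences between these arrays, so their place against the bars is a description.

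The ALDO difference in KO minus that in WT was 1.24 for Fga, 1.25 for Fgg and 1.47 for Fgb. Its 4 arrays leave no spread to test it against. The central 95% of the brighter genes ran from -0.55 to 0.64, below both Fga and Fgg, and that of the dimmer genes from -1.73 to 1.80, which held Fgb. It contains the contrast by which the chains were chosen, so nothing is read from their place against these ranges. The 2-fold line was passed upward by 0.594% of the brighter and 11.1% of the dimmer genes. Set against WT control, from which it differs in both factors, KO ALDO was higher by 3.29 for Fgb, 2.88 for Fgg and 2.02 for Fga, where 3% of the brighter and 10.4% of the dimmer genes passed 2-fold. As these comparisons share arrays, their values are not separate observations.

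The chains did not all differ by the same amount. Fgg exceeded Fga by 0.88 in the genotype difference under control treatment and by 0.90 under ALDO, pairs of arrays that have none in common. For the ALDO difference, Fgg minus Fga was -0.04 in WT and -0.03 in KO. Thus the ratio of Fgg to Fga signal was higher in both KO arrays and nearly the same with and without ALDO. Fgb followed another pattern, exceeding Fga by 0.15 and 0.38 in the genotype differences but by 0.89 and 1.12 in the ALDO differences of WT and KO. Where Fgb was dim, in WT control above all, these values depend on the pseudocount.

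The distance from KO ALDO to the next highest array was read too. All 3 chains were 2-fold or more above every other array there. Their gaps repeat differences given above, to KO control for Fga and Fgg and to WT ALDO for Fgb. As the chains were chosen by such differences, nothing is read from this count of 3 or from their place below. Among the brighter genes 12 were 2-fold or more above every other array in KO ALDO (0.132%), and 115 of the dimmer genes (1.26%). The same count was 6 (0.066%) for WT ALDO, 4 (0.044%) for WT control and 1 (0.011%) for KO control. Fga had the widest gap of the 12 (1.37), followed by fibronectin, Fn1 (1.37), Fgg (1.34) and the protease inhibitor Serpinb6b (1.33). The other 8, named after their values were seen, were the smooth muscle protein transgelin Tagln (1.29), the vasodilator peptide gene Adm (1.14), the collagen chain Col6a2 (1.14), the cytokine signalling inhibitor Socs3 (1.11), the matricellular protein Ccn1 (1.06), the elastic fibre glycoprotein Emilin1 (1.05), Emp3 (1.01) and, at the 2-fold line, Plekho1. Fgb, outside the brighter genes, had a gap of 2.28. The tubular injury marker Havcr1, also outside them, had a gap of 2.05 to KO control, so a wide gap was not particular to the chains.

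Genes with the profile most like each chain were sought among the brighter genes, by the root mean square distance between log2 profiles centred on their mean over the 4 arrays. Nearest to Fgg was Socs3, at 0.17, with intensities of 215, 558, 180 and 1221. Dimmer genes were not searched, among them Cd44 with 108, 343, 123 and 693, the same order of arrays as Fgg. Socs3 is itself induced by STAT3 and limits its signalling. The next were the complement gene C1qa (0.34), the leukotriene C4 synthase Ltc4s (0.37), Pamr1 (0.38) and the cell cycle inhibitor Cdkn1a (0.40), and Fga was 10th at 0.45 (rank 10). Nearest to Fga was Fn1, at 0.16, with 511, 757, 685 and 1980. Fibronectin is a matrix protein that binds fibrin and is crosslinked to it. It was followed by Tnfrsf12a, the receptor of the cytokine TWEAK (0.21), Serpinb6b (0.22), tenascin C, Tnc, which has a fibrinogen-like domain (0.23), and the adhesion molecule Mcam (0.24), with Fgg at rank 164. For Fgb the distances were larger, 0.49 for Tagln, 0.49 for Adm, 0.52 for Fn1, 0.52 for Fga and 0.53 for Serpinb6b. Distances over 4 arrays describe these arrays and say nothing of shared control.

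**Figure D3:**
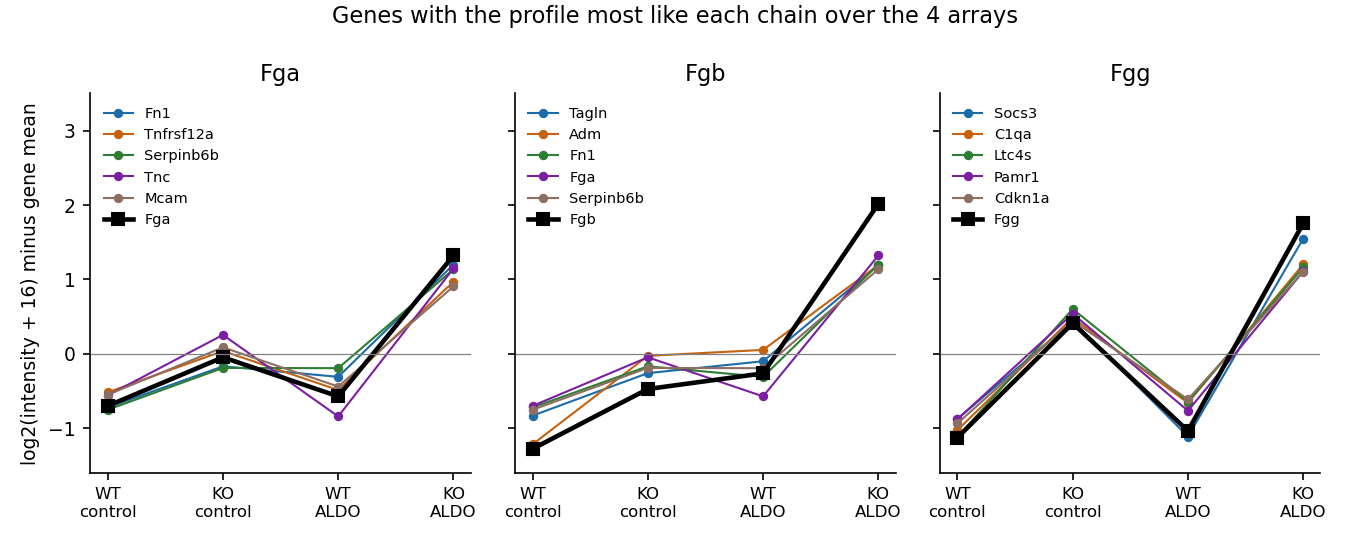
Log2(intensity + 16) minus the gene's mean on the 4 arrays, for each chain (black squares) and the 5 brighter genes nearest to it (coloured lines). Fgg and its nearest gene Socs3 are low in both WT arrays and high in both KO arrays, while Fga and Fn1 stand out in KO ALDO.

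The genes beside the cluster did not share the pattern. Plrg1, a splicing factor next to Fgb, had 759, 724, 705 and 751, and its differences lay between -0.10 and 0.09 in the 4 comparisons of single factors. On the other side Lrat, which esterifies retinol, was dim with 86.0, 71.6, 103 and 72.6, and Rbm46 and Npy2r were at 21.0 or less on every array. Gm10710 was also dim (28.5 to 53.1), and Dchs2 had no probe set that could be used. The higher signal in KO was thus seen in the 3 chains and not in the 1 brighter neighbour.

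Genes that act before and after fibrinogen were compared by role, in the lists of the pathway. In each, the count of brighter members stands beside the length of the list, and the median of all 9097 genes was -0.0020 under control treatment and 0.0087 under ALDO for the genotype difference. Of 17 genes of thrombin generation, 6 were bright. Between the control arrays 2 of the 6 were above 0 in KO, with a median of -0.11. In KO ALDO against WT ALDO 5 of the 6 were, with a median of 0.25, and neither comparison had a gene past 2-fold. F2r, the thrombin receptor PAR1, was highest with 7676, 12115, 10791 and 17189 (genotype differences of 0.66 without ALDO and 0.67 with it, and 1.16 between KO ALDO and WT control). Kng1, encoding kininogen, followed with 0.63. F5, encoding the cofactor of the prothrombinase complex, was lower on both ALDO arrays and in KO control than in WT control (967, 605, 361 and 355). Prothrombin F2 itself was dim throughout, at 48.4 or less.

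Anticoagulant genes showed no common direction, with 7 of 12 bright. Of these 4 were above 0 between the control genotypes (median 0.07) and 3 under ALDO (median -0.05). Thbd, the endothelial thrombin receptor thrombomodulin, had 731, 770, 1281 and 1846, so it was higher on the ALDO arrays (1.24 in KO). Pros1, encoding protein S, was higher in KO (0.58 and 0.72). Proc, encoding protein C, was lowest in KO ALDO, with 3695, 2712, 2599 and 1726, and Serpinc1, antithrombin, was below 0 in both genotype differences (-0.45 and -0.33).

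Fibrinolysis genes had 9 of 15 bright, 7 of them above 0 in either genotype difference, with medians of 0.28 without ALDO and 0.42 with it, and 0 past 2-fold. The tissue activator Plat had 10087, 13670, 8927 and 13552, higher in both KO arrays. The urokinase gene Plau went the other way, with 1096, 591, 1434 and 808 (differences of -0.87 and -0.81). The plasmin inhibitor Serpinf2 was also lower in KO (-0.45 and -0.58). Anxa2 and S100a10, which form a plasminogen receptor, were higher in KO by 0.25 and 0.78 under control treatment and by 0.80 and 0.53 under ALDO. The plasminogen gene Plg was dim on every array, at 48.3 or less.

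Of the 7 genes of fibrin crosslinking and of the matrix that fibrin joins, 5 were bright, with medians of 0.39 and 0.73. Fn1 (0.55 and 1.51), thrombospondin Thbs1 (0.40 and 0.79) and Sparc (0.39 and 0.73) were higher in KO. The transglutaminase gene Tgm2 (0.07 and 0.15) and the factor XIII carrier subunit F13b (-0.09 and -0.18) were near 0. F13a1, the catalytic subunit of the fibrin crosslinker, was dim at 56.0, 177, 46.8 and 102. Among receptors for fibrinogen and fibrin 7 of 16 were bright, with 7 above 0 under control treatment and 5 under ALDO. Icam1, which bridges fibrinogen to leukocytes, had 578, 846, 499 and 1102 (1.12 under ALDO), and the syndecan Sdc1 was just past 2-fold there. Cdh5, the endothelial cadherin that fibrin binds, had 603, 987, 1060 and 1465 (1.26 between KO ALDO and WT control). Itgav and Itgb1, subunits of integrins that bind fibrinogen, had 0.51 and 0.44 under ALDO. Itgam and Itgb2, which form the leukocyte receptor of the γ chain, were not among the brighter genes, Itgam at 47.1 or less and Itgb2 at 144, 278, 144 and 352.

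**Figure D4:**
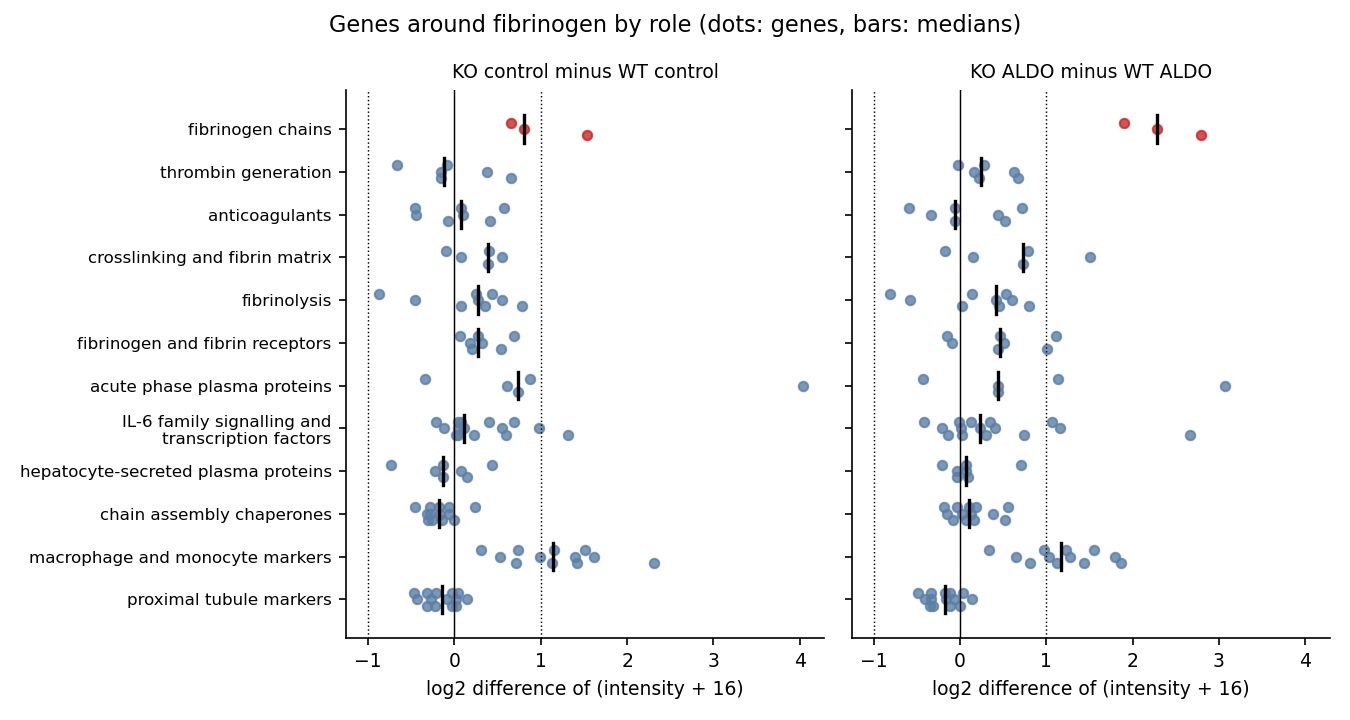
Log2 difference of (intensity + 16) between KO and WT for the brighter members of 11 gene lists (blue dots) and the 3 chains (red dots, Fgb included), with black bars for medians and dotted lines at 2-fold in either direction. Under ALDO the chains lie between 1.89 and 2.79, and Lcn2 of the acute phase list at 3.07 is the highest dot of that panel, while in the control panel Lcn2 is at 4.03 and the chains are between 0.65 and 1.54.

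The acute phase and interleukin-6 lists held the genes that accompany fibrinogen in the liver. Of 25 acute phase genes 5 were bright, with medians of 0.74 between untreated genotypes and 0.45 under ALDO. Lcn2, also an injury marker of the tubule, had 76.5, 1497, 218 and 1950, and ceruloplasmin, Cp, had 973, 1795, 1310 and 2894. The metallothioneins Mt1 and Mt2 were higher in KO by 0.45 and 0.44 under ALDO, while the complement factor gene Cfb had -0.43. Many classical liver members were dim: Saa1, Saa2, Saa4, Hpx, Orm1, Orm2, Orm3, Itih3 and Serpina3n were at 65.9 or less on every array. Haptoglobin, Hp (63.7, 178, 46.7 and 120), and Saa3 (56.9, 140, 80.9 and 175) were dim too but higher in both KO arrays. Lbp, which binds lipopolysaccharide, was alike (83.5, 177, 115 and 222). With dim genes included, 18 of 23 acute phase genes were above 0 under control treatment and 17 of 23 under ALDO. Of all 18193 genes 9663 and 10077 were above 0 in these comparisons.

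In the interleukin-6 family list 15 of 26 genes were bright, 13 of them above 0 between untreated genotypes and 11 under ALDO, with medians of 0.11 and 0.23. After Socs3 (1.31 and 2.66), the receptor subunit for oncostatin M, Osmr, was next under ALDO with 390, 596, 498 and 1134 (0.59 and 1.16). Cebpd, a C/EBP factor of the acute phase, had 186, 383, 232 and 503 (0.98 and 1.06). Stat3 had 1355, 2198, 1445 and 2434 (0.69 and 0.75), and the shared receptor gp130, Il6st, had 0.22 and 0.41. Cebpb had 0.04 and 0.35, and the interleukin-6 receptor Il6ra had 0.01 and -0.21. Il6 itself was at 33.0 or less on every array.

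Genes of hepatocytes were read as a check for liver RNA, since liver is the main source of fibrinogen. Of 28, 22 had a probe set and 7 were bright, with genotype medians of -0.13 and 0.07. Albumin, Alb, had 588, 536, 339 and 330, and Apoh had 602, 511, 286 and 301. Both were lower on the ALDO arrays. Apoc3 went the other way with 412, 563, 475 and 790, highest in KO ALDO like the chains, and Apob had 5696, 3418, 2717 and 2900. The summed intensity of the list was 66803, 69077, 59520 and 60574, most of it from Ttr (24165 to 31152) and Cyp2e1 (29227 to 31266), so the sum says little of the other members. Ahsg, Mug1, Mup3 and Cps1, markers that define hepatocytes, were at 50.4 or less on every array. The part of liver RNA in the chains' signal was not tested. The 13 chaperones and transport factors of the endoplasmic reticulum, where chains are assembled, were all bright and showed no 2-fold difference between genotypes, with medians of -0.18 and 0.11. Of the 13, 1 was above 0 in KO under control treatment and 9 under ALDO. In the difference of the ALDO effects 11 were above 0, with a median of 0.25, and Sdf2l1 passed 2-fold at 1.02.

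Among markers of blood and immune cells, those of macrophages and monocytes were higher in KO, as the chains were. All 12 bright macrophage and monocyte markers were above 0 in both genotype differences, with medians of 1.14 and 1.17, 7 and 8 of them past 2-fold. Some can be bright through KO alone. With dim genes included, 17 of 17 were above 0 under control treatment and 16 of 17 under ALDO. The summed intensity of the 17 with a probe set was 9401, 19287, 8979 and 19789. Lyz1 (2098, 4691, 1700 and 3712) and Lyz2 (1153, 2541, 951 and 2247) carried much of that sum. From KO control to KO ALDO 7 of the 12 bright markers were above 0 and 5 below, with a median of 0.14 and 0 past 2-fold. Lyz1 and Lyz2 were not higher there. The highest of the list were C1qa, C1qc, Cd14 and Cd68, by 0.72, 0.90, 0.83 and 0.73, C1qc and Cd68 being dim. Platelet markers, of which 2 of 10 were bright, summed to 1030, 1583, 836 and 1246, with Pf4 at 212, 506, 215 and 457, past 2-fold in both genotype differences (1.20 and 1.04). Ppbp, dim at 111, 250, 95.3 and 135, was also higher in both KO arrays, and the defining genes Gp9 and Gp5 were at 71.6 or less. Itga2b, the other bright platelet marker, had 373, 425, 258 and 232. It was lowest in KO ALDO, with genotype differences of 0.18 under control treatment and -0.15 under ALDO. Of 10 neutrophil markers 1 was bright, S100a8, which had 383, 462, 34.5 and 533, so that WT ALDO stood apart. No lymphocyte marker was among the brighter genes, and their sum was 319, 425, 325 and 370. Erythroid markers, of which 1 of 10 was bright, summed to 832, 913, 1113 and 977.

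By their sums, markers of cells that make matrix or contract followed genotype and treatment together, as the chains did in KO. Fibroblast and interstitial matrix genes summed to 5018, 7136, 6165 and 12100, and 6 of 10 were bright, with medians of 0.29 without ALDO and 0.95 with it between genotypes. Their defining collagen Col3a1 had 520, 1172, 857 and 2000, and Col1a1 was dim at 160, 245, 93.1 and 450. Smooth muscle and pericyte markers summed to 12659, 14019, 17738 and 24920, and 6 of 8 were bright, with medians of 0.30 and 0.66. Their defining gene Acta2 had 2511, 2966, 3586 and 6797. The sums of both lists were highest in KO ALDO, like the chains. Between the control arrays 4 of the 6 bright members of each list were above 0 in KO, and 2 were below. Of the 6 bright smooth muscle and pericyte markers 5 were higher in KO under ALDO. Myh11 was not, with 178, 296, 552 and 510. Both lists were also higher with ALDO in WT, with medians of 0.46 and 0.62, where Fga and Fgg had 0.13 and 0.09 and Fgb 1.01. Mesangial markers, 8 of 9 bright, summed to 10303, 12117, 12995 and 15788, and genes of the glomerular basement membrane, 12 of 12 bright, to 19880, 26754, 21790 and 31763.

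The marker lists of epithelial and endothelial cells differed among themselves. Podocyte markers had genotype medians of -0.09 and 0.14, proximal tubule markers -0.15 and -0.17, distal nephron markers 0.01 and 0.35, parietal epithelial markers 0.60 and 0.61 and endothelial markers 0.40 and 0.46. Kidney injury genes, chosen as the chains were with earlier results known, had 9 of 18 bright, all 9 above 0 in both, with medians of 0.76 and 1.03. Havcr1, the tubular injury marker KIM-1, was dim except in KO, with 39.3, 308, 70.1 and 1328. With ALDO it was higher by 0.64 in WT and by 2.05 in KO, a difference of the ALDO effects of 1.42. The 3′ over 5′ signal ratio of Actb, a sign of RNA integrity, was 1.86 and 1.87 on the WT arrays and 1.67 and 1.61 on the KO arrays, so it moved with genotype too. The part of macrophages, matrix-producing and contractile cells, tubular injury and RNA integrity in the chains' differences was not tested.

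Genes with a fibrinogen-like domain had no common direction between genotypes. Of 20 genes 6 were bright, 2 above 0 under control treatment (median -0.09) and 3 under ALDO (median 0.04, and -0.85 among the brightest 25% of genes, which is the value of Angptl4). For ALDO in KO 5 of the 6 were above 0, with a median of 0.37. Tnc had 193, 350, 155 and 665, and Angptl4, a lipase inhibitor, was lowest in KO ALDO against WT ALDO at -0.85. Between the control genotypes Angptl7 was lowest at -1.44, with 723, 257, 259 and 419, and was the 1 member past 2-fold. Fgl2, a prothrombinase of leukocytes and endothelium, was dim at 105, 229, 108 and 201, and Fgl1, made by the liver, was at 62.7 or less.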

How the data were processed

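Per the labels' protocols, RNA was labelled with the GeneChip 3′ IVT Express Kit. The authors deposited 1 table of probe set intensities on a linear scale, made with Affymetrix Expression Console per the submitters' processing notes, with algorithm, version and background correction not given in the sources used here. From the values, each array had a mean of 500.003 after leaving out the highest and lowest 2%, so a change of the whole transcriptome would not show.

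The deposited intensities were transformed as log2(intensity + 16), which understates changes of dim genes. Of 45101 probe sets 34958 had 1 gene symbol, 932 several and 9211 none listed. The brightest stood for its gene. Differences were computed in Python 3.11.15 (pandas 2.3.3, numpy 2.4.6), with 2-fold as the rule for a count, and the steps were tested on simulated data. The 3 chains matched the RefSeq table by symbol and Entrez identifier. Alternatives were pseudocounts of 1 and 64, quantile normalization, median centring, the mean of all probe sets, no filter on low signal and the brightest 25%.

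Named genes were the chains, their 3 neighbours on each side, fixed signalling genes, the 5 genes nearest to each chain, and members of 27 gene lists (the 2 highest and 2 lowest, brighter members past 2-fold in the pathway lists, and dim or defining members where a sentence turns on them). Some planned items are not reported here. The members, lists and rules were chosen with earlier results of these data known.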

Additional observations from a re-analysis of the deposited data

Results flagged for a closer look

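Socs3, the nearest to Fgg among the brighter genes, was lower with ALDO in WT (-0.24) and higher with ALDO in KO (1.11), and this difference was not tested. Il6ra had genotype differences of opposite sign, 0.01 under control treatment and -0.21 under ALDO, also not tested. Plrg1, beside Fgb, had opposite signs for ALDO in WT and KO (-0.10 and 0.05) and for genotype under control and ALDO (-0.07 and 0.09), likewise not tested, and all 4 are small.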

How the results depend on the processing

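Each of the 18 chain differences was recomputed under 5 settings, which gave 90 values. Of these 86 kept their direction, their side of 2-fold and their size within 1.5 times. The mean of all probe sets, 1 of the 5 settings, could not change a chain with 1 probe set. Its 18 values are among the 86 by construction. The exceptions were all of Fgb. For WT ALDO against WT control its difference was 0.70 with a pseudocount of 64, 0.98 with quantile normalization and 0.98 with each array centred on its median, where 0 chains passed 2-fold in place of 1, and for KO ALDO against WT control it was 2.69 with a pseudocount of 64. Fgb was dim on 3 arrays, which is where a pseudocount acts. The Fga and Fgg differences between KO ALDO and WT ALDO stayed between 1.75 and 1.91 and between 2.65 and 2.83. Median centring moved the median of the brighter genes by up to -0.17 (KO ALDO against WT control). The share of genes past 2-fold upward depended on signal: for KO ALDO against WT ALDO it was 4.72% with no filter and 0.77% among the brightest 25%. For KO control against WT control these were 4.44% and 0.57%, for ALDO in WT 3.4% and 0.22%, for the difference of effects 5.87% and 0.26%, and with no filter 3.83% for ALDO in KO and 6.68% for KO ALDO against WT control. Of the recomputed list medians 474 kept their side of 2-fold and their size within 1.5 times, small ones near 0 changing sign at times. Among the 14 others, kidney injury genes went from 0.76 to 1.02 between control genotypes with no filter and from 1.03 to 0.91 under ALDO among the brightest 25%, and fibroblast genes from 0.95 to 1.08 there. A next-brightest probe set did not exist for any chain, so that alternative was not run. No paired analysis was possible because each group had 1 array, and for the same reason no replicate could be left out.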
